A study of Mus musculus with 18 samples.

Results

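Chemokines and their receptors were described across 6 groups of mouse uterus libraries. The members were the rows of the count table whose symbol is Ccl, Cxcl, Ccr or Cxcr followed by a number and at most 1 letter, together with Cx3cl1, Xcl1 and Xcr1 and without Cxcl10. This rule took 54 of the 22238 symbols, 36 ligands and 18 receptors. No measured value entered it.

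All libraries came from whole uterus homogenate of adult CD-1 mice, an outbred stock, whose ovaries had been removed. The mice had received doxorubicin (DOX), an anthracycline used in chemotherapy, or PBS as its vehicle. Each of these arms had an OIL, an E2 and a P4 group, which in this field stand for the hormone vehicle, estradiol and progesterone. The groups PBS OIL, DOX OIL, PBS E2, DOX E2, PBS P4 and DOX P4 had 3 libraries each, 18 in all. The labels used here give no dose or time and do not say whether each library is a mouse of its own. The p-values therefore reflect only how these libraries scatter, which may be technical. The homogenate mixes all cell types of the organ, and fewer cells of a type and less RNA per cell cannot be told apart in it.

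Chemokines are small secreted proteins that bind G protein-coupled receptors and direct the movement of leukocytes. Ligands of the CXC type with an ELR motif act on neutrophils through Cxcr2, the ligands of Ccr2 draw monocytes and macrophages, and others position lymphocytes and dendritic cells. In the uterus, estrogen is known to bring leukocytes into the tissue, and progesterone is known to oppose this.

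The total count was 18042357 to 39783785 per library, and values are given as CPM, the counts of a gene relative to the library total, with trimmed mean (TMM) scaling. All 15 markers of uterine epithelium, stroma and muscle looked at had counts in every group, with a summed level of 7224 to 20892 CPM. A pair of OIL libraries stood apart for chemokines. Of the 53 members with any count, 11 had their highest level of all 18 libraries in PBS OIL replicate 2 and 15 in DOX OIL replicate 2. In PBS OIL replicate 2 the summed level of 15 neutrophil markers was 119 CPM, against 29.3 and 41.1 CPM in the other PBS OIL libraries, and that of 18 monocyte and macrophage markers was 2103 CPM against 484 and 696 CPM. In DOX OIL replicate 2, 24 genes of the interferon gamma response summed to 1955 CPM against 1422 and 1216 CPM, and 12 T cell markers to 54.3 CPM against 28.1 and 29.4 CPM. The part of these cells and signals in the chemokine values was not tested, and called results that rest on either library are given with and without it.

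A gene was tested where its counts passed the filter on low values, about 0.47 CPM in 3 or more libraries. Of the 54 members 45 were tested, 31 ligands and 14 receptors. The 9 that were not tested were Cxcl2, Cxcl3, Ccl26, Ccl1, Ccl20, Cxcr1, Ccr3, Ccr4 and Ccr8. Ccl26 had no count in any library. Of the tested members 27 reached the filter level in all 18 libraries, and 0 reached it in 1 group only. A difference was called where the Benjamini-Hochberg adjusted p of edgeR's quasi-likelihood test, over 15494 genes, was under 0.05. Of the 45 tested members 29 were called in at least 1 comparison and 16 in none.

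Per kilobase of exon, Cxcl12 had the highest mean of the members in 5 of the 6 groups, at 86.7 ± 24.6 CPM per kb (SD, n = 3) in PBS OIL, 85.4 ± 12.6 in DOX OIL, 77.9 ± 11.3 in PBS E2, 77.1 ± 9.21 in PBS P4 and 74.9 ± 2.5 in DOX P4. Ccl21a and Ccl21b followed in each of these 5 groups, for example at 76.5 ± 20.5 and 68.5 ± 17.3 CPM per kb in PBS E2. The order of these 3 was not apart beyond the spread in PBS OIL, DOX OIL, PBS E2 and PBS P4. In PBS OIL Ccl21a stood at 86.4 ± 33.3 and Ccl21b at 85.7 ± 25.7 CPM per kb. The order also depends on how reads were divided over the Ccl21 copies, and Ccl21c has no value per kb. In DOX E2 the order was another, with the monocyte ligand Ccl7 at 81.7 ± 51.5, the scavenging receptor Cxcr7 at 53.3 ± 5.09, Cxcl12 at 45.8 ± 2.85 and Ccl2 at 34.1 ± 5.97 CPM per kb. The SD of Ccl7 takes in the means of the other 3. Its libraries, at 44.0 to 140 CPM per kb, all lay above those of Ccl2, at 30.5 to 41.0.

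E2 called more members in each arm than DOX did in any comparison, while P4 and DOX under E2 called like numbers. In the PBS arm the lead of E2 was small, 11 members against 9 for DOX under E2. With 1 library left out these ran from 9 to 16 and from 5 to 10, which overlap. For E2 against OIL in the PBS arm, 7 members were called higher (29.6% of all tested genes were) and 4 lower (31.9%), so that 11 of 45 or 24.4% of the members were called against 61.4% of all genes. In the DOX arm 12 were higher (35.1% of all genes) and 13 lower (37.5%), 55.6% of the members against 72.6% of all genes. For P4 against OIL, 0 members were higher (16.2%) and 8 lower (15.6%) in the PBS arm, 17.8% of the members against 31.8% of all genes. In the DOX arm 1 was higher under P4 (14.7%) and 8 lower (15.1%), 20% against 29.8%. For E2 and for P4 the share of members called was thus under the share of all genes in each arm.

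DOX against PBS under E2 called 2 members higher (20.4% of all genes) and 7 lower (20.6%), 20% of the members against 41.0% of all genes. Under OIL, DOX called 0 members by edgeR, against 0.0129% of all genes, with 0.00645% in each direction. DESeq2 and limma voom called 0 members there as well. An unadjusted p under 0.05 was found for 7 members and for 1253 of 15494 genes. Under P4, DOX called 0 members and 0% of all genes by edgeR, and 0 members by DESeq2 and by limma voom. There 4 members and 822 of 15494 genes had an unadjusted p under 0.05. The test of whether the E2 response differed between the DOX and PBS arms called 0 members higher (10.1% of all genes) and 1 lower (12.8%), 2.22% of the members against 22.9% of all genes. The same test for P4 called 0 members by edgeR, DESeq2 and limma voom, against 0.00645% of all genes by edgeR. In it 2 members and 525 of 15494 genes had an unadjusted p under 0.05.

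**Figure D1:**
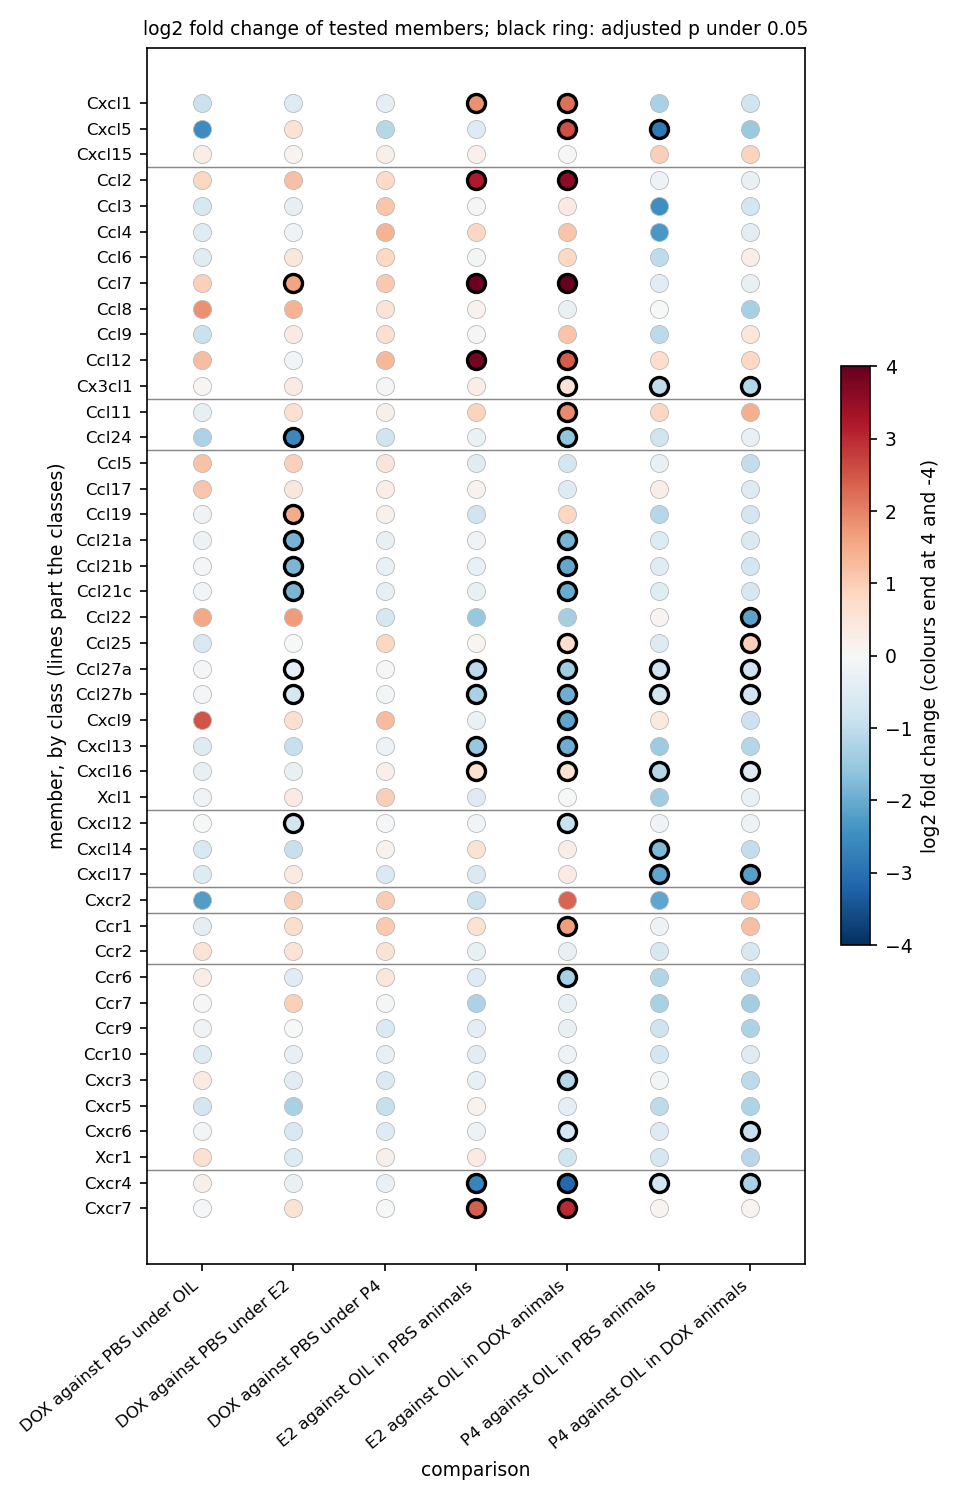
Each point is the log2 fold change of 1 tested member (rows, ordered by class, with 1 of the 45 not drawn) in 1 of 7 comparisons (columns), coloured from blue (lower) to red (higher), and a black ring marks an adjusted p under 0.05. The E2 columns hold 10 and 24 rings, the P4 columns 8 and 9, the column of DOX under E2 holds 9, and the other DOX columns hold 0.

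Among the ligands for neutrophils, E2 raised Cxcl1, a ligand of Cxcr2, in both arms. Cxcl1 stood at 0.357, 2.18 and 0.42 CPM in the PBS OIL libraries and at 3.59, 3.52 and 3.46 CPM in PBS E2, and at 0.456, 0.642 and 0.474 CPM in DOX OIL against 2.12, 2.11 and 3.08 CPM in DOX E2. The groups did not overlap in either arm. The log2 fold change was 1.84 ± 0.51 (SE) in the PBS arm (adjusted p = 0.00578) and 2.21 ± 0.55 in the DOX arm (adjusted p = 0.00183). Without PBS OIL replicate 2, the highest of its group, the value in the PBS arm was 3.17.

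Cxcl5, another Cxcr2 ligand, was low in all groups but rested on 1 library under OIL. It stood at 0.134, 3.76 and 0.14 CPM in PBS OIL, 0.207, 0.321 and 0.158 CPM in DOX OIL, 0.524 to 1.19 CPM in PBS E2, 1.15 to 1.7 CPM in DOX E2, 0.0863 to 0.331 CPM in PBS P4 and 0.0376 to 0.108 CPM in DOX P4. In the DOX arm E2 raised it, with a log2 fold change of 2.57 ± 0.96 (adjusted p = 0.0252). This call did not pass the threshold without DOX OIL replicate 1 (2.5), DOX OIL replicate 3 (2.39) or DOX E2 replicate 1 (2.39). In the PBS arm the E2 value was -0.56 ± 0.83 and not called, and without PBS OIL replicate 2 it turned to 2.69. The fall under P4 in the PBS arm, -2.85 ± 0.99 (adjusted p = 0.0393), likewise turned to 0.40 without that library and did not pass the threshold without PBS P4 replicate 1 (-2.67), 2 (-2.5) or 3 (-3.54).

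Cxcl15, also called lungkine, was the most abundant ligand of this class by CPM in every library but PBS OIL replicate 2, where Cxcl2 was. It lay between 5.21 and 26.4 CPM in all 18 libraries and was called in no comparison. Cxcl2 and Cxcl3, close relatives of Cxcl1, were not tested. In PBS OIL replicate 2 they stood at 6.96 and 4.09 CPM, from 150 and 88 counts. In the other 17 libraries Cxcl2 was between 0 and 0.529 CPM and Cxcl3 between 0 and 0.108 CPM. Ccl9, a ligand of Ccr1, was high in the same library, at 34.4 CPM against 2.41 and 5.83 CPM in the other PBS OIL libraries.

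Cxcl1, Cxcl2, Cxcl3 and Ccl9 each had their highest level under OIL in PBS OIL replicate 2, and the bases before their starts are shown because they share a motif of the NF-kB family. These 4 were picked after their values were seen. Ccl3, Ccl6 and Cxcr2 were also highest under OIL in that library, and their promoters held no match. So were Cxcl5, Ccl4, Ccl19, Cxcl12, Cxcl16, Ccr1, Ccr7 and Ccr9, for which no match was found. For some of these a promoter may have been missing. Ccl20, with few counts, was highest there too and held a match. Whether the motif has a part in these levels was not tested. The sequences are from RefSeq on build GRCm38.p6, up to 250 bases before the start of the gene and 5′ to 3′ on the gene's strand, and end where the GENCODE gene begins if that comes first. Capitals mark each match, on either strand, of GGG and TTTCC with any 2 bases between them, with no overlap between matches.
Cxcl1, chr5:90890995-90891240, plus strand: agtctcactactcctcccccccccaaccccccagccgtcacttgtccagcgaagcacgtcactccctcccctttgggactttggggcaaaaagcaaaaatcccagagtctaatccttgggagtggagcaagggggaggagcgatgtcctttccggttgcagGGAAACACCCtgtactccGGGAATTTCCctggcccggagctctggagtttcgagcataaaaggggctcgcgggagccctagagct
Cxcl2, chr5:90903649-90903870, plus strand: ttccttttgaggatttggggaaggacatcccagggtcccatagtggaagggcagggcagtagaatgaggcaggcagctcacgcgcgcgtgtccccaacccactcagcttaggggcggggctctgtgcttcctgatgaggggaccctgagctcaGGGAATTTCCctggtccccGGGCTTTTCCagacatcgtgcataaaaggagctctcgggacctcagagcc
Cxcl3, chr5:90785851-90786100, plus strand: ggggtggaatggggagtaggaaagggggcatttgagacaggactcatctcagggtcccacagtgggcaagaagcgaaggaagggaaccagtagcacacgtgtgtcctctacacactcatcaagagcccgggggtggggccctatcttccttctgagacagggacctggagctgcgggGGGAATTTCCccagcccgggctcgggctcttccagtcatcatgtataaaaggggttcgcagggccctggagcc
Ccl9, chr11:83578637-83578886, minus strand: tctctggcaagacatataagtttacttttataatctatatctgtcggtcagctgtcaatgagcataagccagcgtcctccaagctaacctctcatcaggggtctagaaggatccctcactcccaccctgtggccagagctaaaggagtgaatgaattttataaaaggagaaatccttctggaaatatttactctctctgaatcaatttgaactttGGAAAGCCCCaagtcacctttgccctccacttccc
Cxcl1 and Cxcl2 hold 2 matches each, and Cxcl3 and Ccl9 1 each. The match GGGAATTTCC begins 71 bases before the RefSeq start of Cxcl1, 97 before that of Cxcl2 and 73 before that of Cxcl3. RefSeq promoters were found for 39 of the 54 members, and 6 of these hold the motif in the 250 bases (Ccl20 and Ccr3 besides the 4 shown), against 1.41% of 32851 promoters. The members are counted as genes and the 1.41% as promoters, and Cxcl1, Cxcl2 and Cxcl3 are close relatives. A match is a description of letters and not of a bound site. Other motifs searched on both strands were the estrogen response element, GGTCA and TGACC with any 3 bases between them, in 0 of 39 members and 0.0639% of promoters, and its shorter part AGGTCA, in 13 of 39 and 14% of promoters. The gamma-activated site TTCNNNGAA was in 3 of 39 members and 7.02% of promoters, and the AP-1 motif TGANTCA in 5 of 39 and 6.75%.

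**Figure D2:**
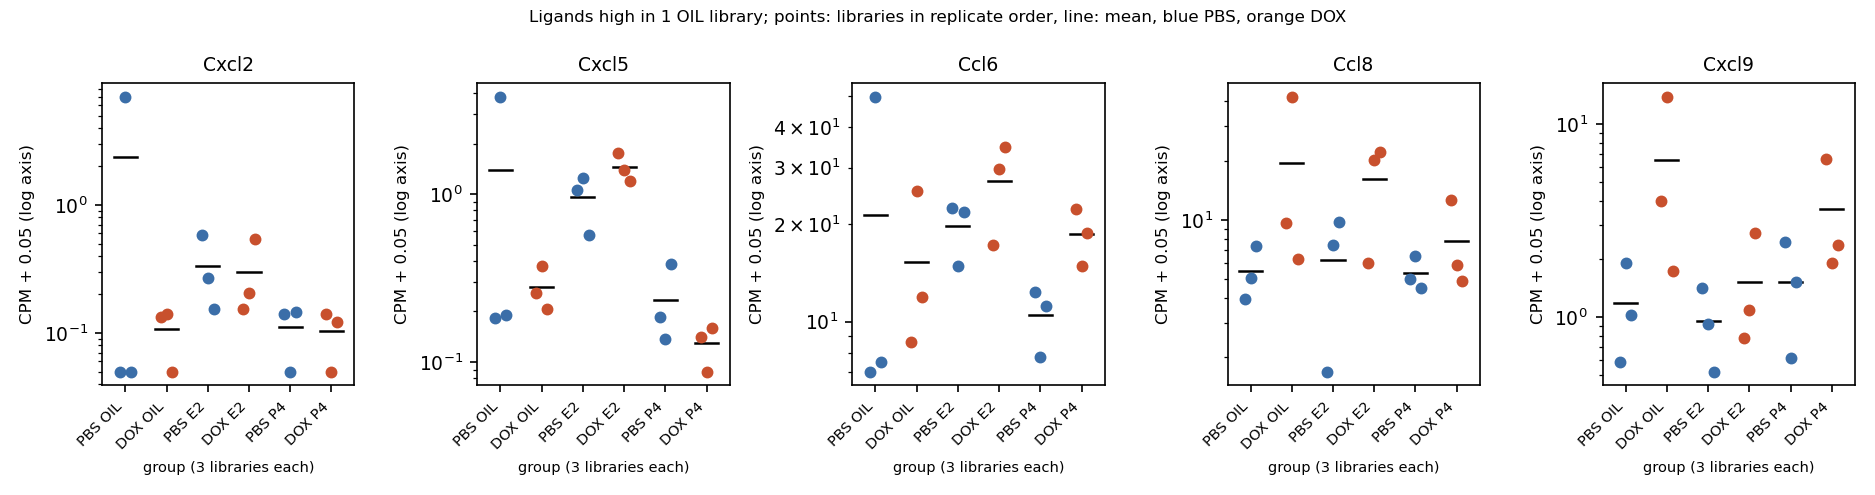
CPM plus 0.05 on a log axis for 5 ligands in each of 18 libraries, in the order of replicates within a group, blue for PBS and orange for DOX, with a line at the group mean. PBS OIL replicate 2 is the highest point for Cxcl2, Cxcl5 and Ccl6, and DOX OIL replicate 2 for Ccl8 and Cxcl9.

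Among the ligands for monocytes and macrophages, the 3 neighbouring genes Ccl2, Ccl7 and Ccl12 rose with E2 in both arms. All 3 are ligands of Ccr2, and they lie on chromosome 11 of GRCm38 at 82035571 to 82037453, 82045712 to 82047525 and 82101845 to 82103400 on the plus strand, per GENCODE M21. Of the 9 ligands of this class, all tested, 3 were called higher and 0 lower in the PBS arm and 4 higher and 0 lower in the DOX arm. These 33.3% and 44.4% called higher compare with 29.6% and 35.1% of all genes. The median log2 fold change of the class was 0.26 and 1.15, against -0.09 and -0.08 over all tested genes. The summed level of the class was 107 to 171 CPM in PBS E2 and 233 to 274 CPM in DOX E2, against 59.3 to 144 CPM in PBS OIL and 71.1 to 141 CPM in DOX OIL.

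Ccl2, known as MCP-1, stood at 0.802, 3.34 and 1.31 CPM in PBS OIL and at 18.1, 8.18 and 24.2 CPM in PBS E2. Among DOX mice it stood at 2.53, 5.73 and 1.47 CPM under OIL and at 46.7, 35.1 and 34.7 CPM under E2. Every E2 library was above every OIL library, and every DOX E2 library was above every PBS E2 library. E2 raised it by 3.21 ± 0.56 on the log2 scale in the PBS arm (adjusted p = 0.000131) and by 3.57 ± 0.55 in the DOX arm (adjusted p = 2.31e-05). The difference between DOX and PBS under E2, 1.21 ± 0.49, was not called (adjusted p = 0.0604). DESeq2, limma voom and a fit of the groups compared alone put it past the threshold, with 1.2, 0.82 and 1.17, as did leaving out PBS E2 replicate 3, with 1.55. Over its alternatives the value ran from 0.82 to 1.55.

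Ccl7, known as MCP-3, had the largest E2 response of the tested members in both arms. It stood at 0.49, 2.55 and 1.21 CPM in PBS OIL, 25.6, 11.8 and 26.8 CPM in PBS E2, 1.62, 5.46 and 1.11 CPM in DOX OIL, and 112, 48.6 and 35.3 CPM in DOX E2. The log2 fold change with E2 was 3.92 ± 0.68 in the PBS arm (adjusted p = 0.000132) and 4.57 ± 0.67 in the DOX arm (adjusted p = 1.38e-05). Under E2, all DOX libraries lay above all PBS libraries, and DOX raised Ccl7 by 1.61 ± 0.57 (adjusted p = 0.0342). DOX E2 replicate 1 carried much of this, since without it the difference was 0.95 and not called. The call also ended without PBS E2 replicate 2 (1.32) or 3 (1.80), with DESeq2 (1.6), with no filter on low counts (1.58) and with the replicate number as a block (1.57). Within groups Ccl7 moved most closely with Ccl2, with a Pearson r of 0.879 on log2 CPM over the 18 libraries, a description of libraries that share groups.

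Ccl12, known as MCP-5, stood at 0.669, 1.76 and 1.03 CPM in PBS OIL against 12.8, 11.7 and 25.0 CPM in PBS E2, and at 1.53, 4.82 and 1.84 CPM in DOX OIL against 11.5, 15.3 and 17.7 CPM in DOX E2. E2 raised it by 3.83 ± 0.46 (adjusted p = 3.62e-06) and 2.44 ± 0.43 (adjusted p = 8.71e-05). Unlike the values for Ccl7, those of Ccl12 under E2 overlapped between the DOX and PBS arms. Its E2 response was 1.40 ± 0.60 lower on the log2 scale in the DOX arm, which was not called (adjusted p = 0.105). Under P4 the 3 DOX libraries, at 6.02, 3.38 and 5.13 CPM, lay above the 3 PBS libraries, at 2.20, 1.81 and 1.75 CPM, and the difference of 1.33 ± 0.43 was not called (adjusted p = 0.892).

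**Figure D3:**
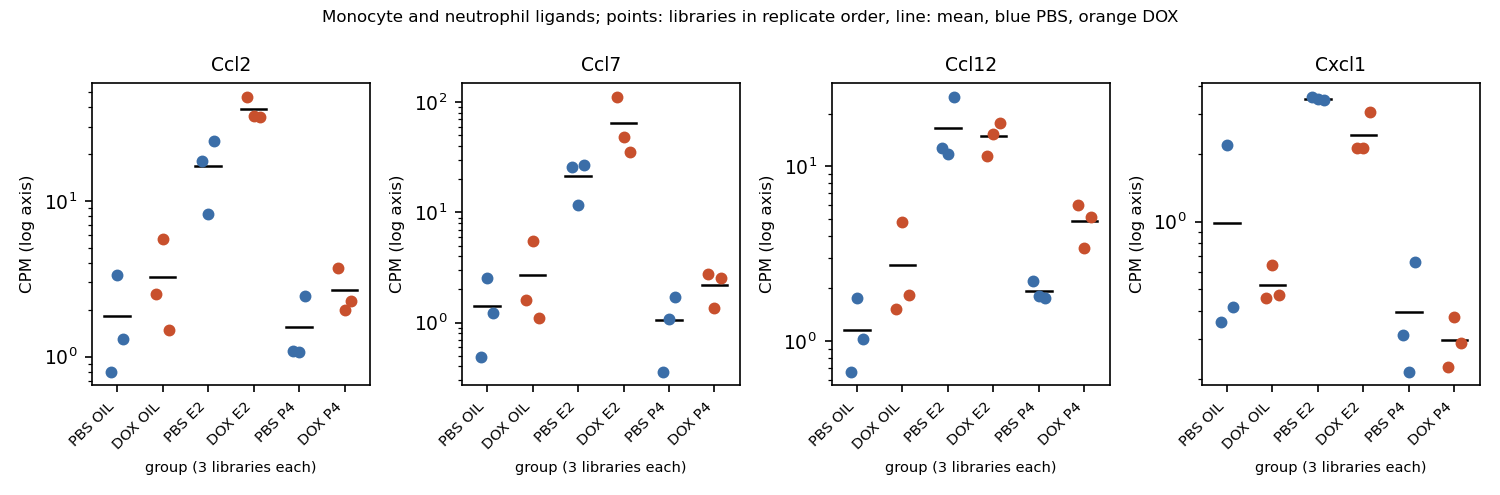
CPM on a log axis for Ccl2, Ccl7, Ccl12 and Cxcl1 in each of 18 libraries, in the order of replicates within a group, blue for PBS and orange for DOX, with a line at the group mean. Within each arm the E2 libraries lie above the OIL and P4 libraries in every panel, and DOX E2 lies above PBS E2 for Ccl2 and Ccl7 but not for Ccl12 and Cxcl1.

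Cx3cl1, or fractalkine, is bound to the membrane and acts on monocytes and other cells with Cx3cr1. It stood at 52.1, 42.7 and 34.8 CPM in PBS OIL and 41.0, 44.2 and 50.6 CPM in DOX OIL. P4 lowered it to 21.2, 21.4 and 20.9 CPM in the PBS arm and 24.3, 22 and 14.4 CPM in the DOX arm, with no overlap. The log2 fold changes were -1.03 ± 0.20 (adjusted p = 0.00154) and -1.16 ± 0.20 (adjusted p = 0.000699), and both calls stayed in every alternative run. With E2 it stood at 67.7, 43.6 and 43.5 CPM in the PBS arm and 69.6, 60.7 and 66.0 CPM in the DOX arm. The rise in the DOX arm, 0.53 ± 0.19 (adjusted p = 0.0222), was lost without DOX OIL replicate 1 (0.46), DOX OIL replicate 2 (0.51) or DOX E2 replicate 1 (0.47).

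The other 5 ligands of this class, Ccl3, Ccl4, Ccl6, Ccl8 and Ccl9, were called in no comparison. Ccl6 stood at 6.95, 49.7 and 7.46 CPM in PBS OIL and at 22.4, 14.8 and 21.8 CPM in PBS E2. Its E2 value in the PBS arm was -0.12 ± 0.59 with all libraries and turned to 1.45 without PBS OIL replicate 2. Ccl9 did the same, from -0.07 ± 0.63 to 1.72, and both passed the threshold in that fit. Ccl3 and Ccl4, known as MIP-1 alpha and beta, stood at 2.55 and 2.04 CPM in PBS OIL replicate 2 against at most 0.186 and 0.267 CPM in the other PBS OIL libraries, and without it their E2 values in the PBS arm went from 0.06 and 0.85 to 2.60 and 2.58 and passed the threshold. Ccl8, known as MCP-2, stood at 42.2 CPM in DOX OIL replicate 2 against 9.62 and 6.27 CPM in the other DOX OIL libraries and 1.64 to 22 CPM in all others.

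Markers of monocytes and macrophages were read beside these ligands. Of 18 tested, 1 was higher and 2 lower with E2 in the PBS arm and 4 higher and 1 lower in the DOX arm. With DOX under E2, 2 were higher and 1 lower. The shares called were 16.7%, 27.8% and 16.7%, under the 61.4%, 72.6% and 41.0% of all genes. The markers summed to 613 to 639 CPM in PBS E2 and 470 to 831 CPM in DOX E2. In PBS OIL the sum was 484 to 2103 CPM and in DOX OIL 458 to 1047 CPM. The defining markers Csf1r, Cd68 and C1qa had counts in all groups. With DOX under E2 the called markers were Chi3l3, a protein of activated macrophages, at 3.98 ± 1.04, Ly6c2, a marker of inflammatory monocytes, at 0.62 ± 0.22, and Mertk, a receptor for dying cells, at -0.48 ± 0.10. The part of these cells in the levels of the ligands was not tested.

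Of the ligands for eosinophils, Ccl24 fell with DOX under E2. Ccl24, or eotaxin-2, a ligand of Ccr3, stood at 2.12, 1.63 and 3.98 CPM in PBS E2 and at 0.155, 0.567 and 0.534 CPM in DOX E2, with no overlap. The log2 fold change was -2.58 ± 0.64 (adjusted p = 0.0049), which held in every alternative run. Under OIL the DOX libraries, at 1.24, 1.28 and 1.32 CPM, also lay below those of PBS, at 2.85, 3.76 and 2.61 CPM, but the difference of -1.26 ± 0.57 was not called (adjusted p = 0.603). With E2 in the DOX arm Ccl24 fell by 1.59 ± 0.65 on the log2 scale (adjusted p = 0.0385). This call ended when DOX OIL replicate 1 (-1.61), 2 (-1.58) or 3 (-1.57) was left out, or DOX E2 replicate 1 (-1.23) or 3 (-1.81).

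Ccl11, or eotaxin-1, the best known uterine ligand of Ccr3, rested on 1 library. It stood at 5.22, 6.83 and 8.21 CPM in DOX OIL and at 56.4, 11.9 and 6.49 CPM in DOX E2. The rise with E2 in the DOX arm, 1.88 ± 0.64 (adjusted p = 0.0146), went to 0.43 without DOX E2 replicate 1 and was also lost without DOX OIL replicate 1 (1.73), under limma voom and in a fit of the groups compared alone. In the PBS arm it stood at 2.45, 9.94 and 13.4 CPM under OIL, 15.0, 15.9 and 17.4 CPM under E2 and 19.1, 10.6 and 17.2 CPM under P4, with no call. Ccr3 itself was not tested and was at most 0.579 CPM outside DOX OIL replicate 2, where it stood at 2.25 CPM. The 9 eosinophil markers summed to 55.3 to 130 CPM in DOX E2, against 8.59 to 27.8 CPM in PBS E2, 9.62 to 26.2 CPM in DOX OIL, 7.92 to 13.6 CPM in PBS OIL, 12.3 to 97.3 CPM in PBS P4 and 13.2 to 32.2 CPM in DOX P4. Nearly all of the DOX E2 sum was Alox15, a lipoxygenase that other cells also make, at 54.1 to 127 CPM. Alox15 rose with DOX under E2 by 2.35 ± 0.76 (adjusted p = 0.0216), 1 of the 2 tested markers, and Ear2, the other, was not called. The defining granule markers Epx and Prg3 were at or near 0, with at most 0.0526 CPM in any library. The part of eosinophils in the levels of Ccl11 and Ccl24 was not tested.

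Of the 7 members that fell with DOX under E2, 5 were ligands for lymphocytes and dendritic cells. Of the 14 tested ligands of this class, 1 was called higher and 5 lower with DOX under E2, 2 higher and 7 lower with E2 in the DOX arm, and 1 higher and 3 lower with E2 in the PBS arm. The shares called lower were 35.7%, 50% and 21.4%, against 20.6%, 37.5% and 31.9% of all genes. In each of the first 2 comparisons 3 of the falls were Ccl21 copies, which are not independent. Ccl27a and Ccl27b, called lower in all 3 comparisons, may also share reads as near-identical copies. All 5 falls with DOX under E2 were thus of such copies. The class had a median log2 fold change of -0.16, -1.40 and -0.41 in these 3 comparisons, against 0.02, -0.08 and -0.09 over all genes. Its summed level was 170 to 232 CPM in PBS E2 and 62.4 to 132 CPM in DOX E2. In PBS E2 the 3 Ccl21 genes together were the largest part of that sum, and in DOX E2 Cxcl16 was, at 36.3 to 57.4 CPM.

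Ccl21a, Ccl21b and Ccl21c encode the lymphatic ligand of Ccr7, which guides dendritic cells and T cells into lymph vessels and lymph nodes. The copies are nearly identical, Ccl21c had no GENCODE entry under that symbol, and the ratio of Ccl21b to Ccl21c counts stayed between 0.912 and 1.19 in the 18 libraries. How reads were divided between them is uncertain, and they are not independent measurements. Ccl21a lies on chromosome 4 at 42772860 to 42773993 on the minus strand. It stood at 57.2, 55.3 and 87.2 CPM in PBS E2 and at 8.06, 15.8 and 29.3 CPM in DOX E2, and at 32.3, 96.9 and 66.9 CPM in DOX OIL. All DOX E2 libraries lay below the libraries of both other groups.

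DOX lowered Ccl21a under E2 by 1.90 ± 0.51 on the log2 scale (adjusted p = 0.00784). Ccl21b fell by 1.84 ± 0.46 (adjusted p = 0.00542) and Ccl21c by 1.84 ± 0.47 (adjusted p = 0.00621). Ccl21b stood at 23.1, 24.0 and 35.5 CPM in PBS E2 and 3.15, 7.48 and 12.2 CPM in DOX E2, and Ccl21c at 24.3, 23.4 and 35.4 CPM against 2.94, 7.12 and 12.9 CPM. With E2 in the DOX arm the 3 copies fell by 1.87 ± 0.51, 2.08 ± 0.46 and 2.01 ± 0.47 (adjusted p = 0.00354, 0.000782 and 0.00124). In the PBS arm they were not called with E2, and Ccl21a stood at 52.2, 65.4 and 108 CPM under OIL. The test of the difference between the arms did not pass for any copy, with -1.70 ± 0.69, -1.76 ± 0.63 and -1.70 ± 0.64 (adjusted p = 0.0881, 0.0555 and 0.0675).

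Markers of lymphatic endothelium, a source of Ccl21, fell with these genes with DOX under E2. Of 6 markers 5 were lower and 0 higher, 83.3% against 20.6% of all genes called lower, with a median log2 fold change of -1.49 against 0.02 over all genes. Their summed level was 271 to 421 CPM in PBS E2 and 91.5 to 190 CPM in DOX E2. Reln fell by 2.12 ± 0.54, Prox1, the transcription factor of lymphatic identity, by 1.95 ± 0.56, the hyaluronan receptor Lyve1 by 1.36 ± 0.41 and the receptor Flt4 by 1.23 ± 0.37. With E2 in the DOX arm, where Ccl21 also fell, 1 marker was higher and 2 lower. These 16.7% and 33.3% compare with 35.1% and 37.5% of all genes, and the sum was 96 to 237 CPM in DOX OIL. With E2 in the PBS arm, where Ccl21 was not called, 1 marker was higher (29.6% of all genes were) and 0 lower (31.9%). The sum in PBS OIL was 107 to 242 CPM. None of the 6 was at 0 in any library, and Prox1 was lowest in DOX E2, at 0.155 to 1.11 CPM. The part of lymphatic endothelium in the fall of Ccl21 was not tested. Adipocyte markers moved as well, with 14 of 15 lower with DOX under E2, 93.3% against 20.6% of all genes. Their summed level was 101 to 389 CPM in DOX E2 against 506 to 7034 CPM in PBS E2, and their part was not tested either.

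Ccl19, the other ligand of Ccr7, went the other way. It stood at 0.891, 0.488 and 0.891 CPM in PBS E2 and at 0.93, 3.35 and 2.14 CPM in DOX E2, with no overlap by a narrow gap. DOX raised it under E2 by 1.48 ± 0.46 (adjusted p = 0.019). Without PBS E2 replicate 2 the value was 1.26 and without DOX E2 replicate 2 it was 1.01, and in both cases the call was lost. Ccr7, their shared receptor, stood at 0.419 to 0.557 CPM in PBS E2 and 0.31 to 1.24 CPM in DOX E2 and was called in no comparison.

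**Figure D4:**
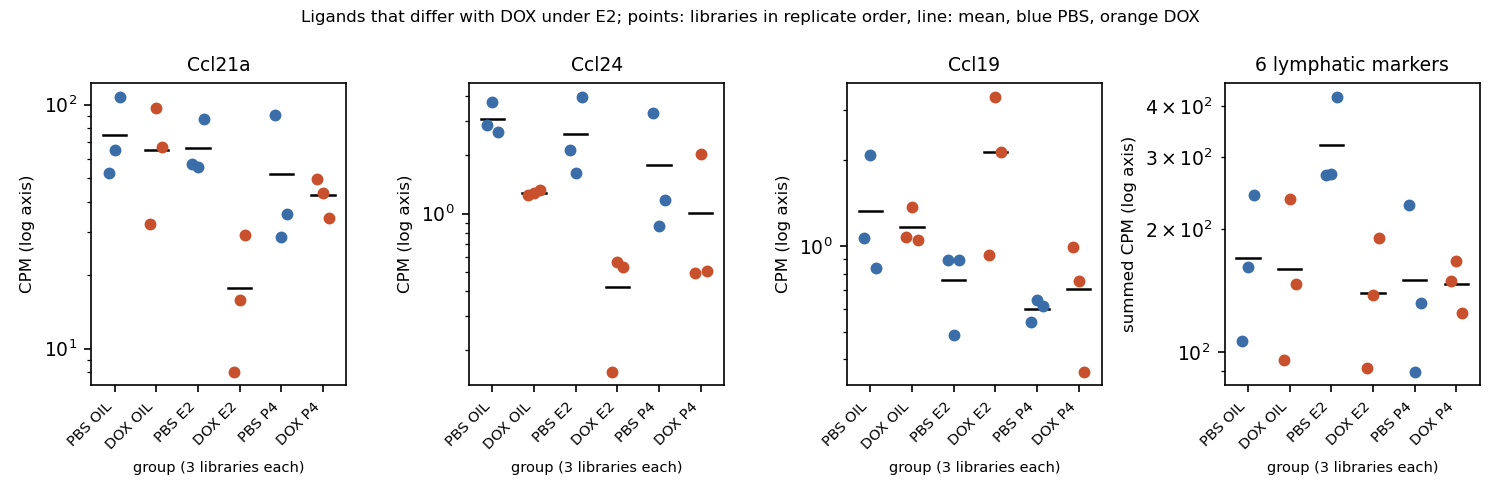
CPM on a log axis for Ccl21a, Ccl24 and Ccl19, and the summed CPM of 6 lymphatic endothelium markers, in each of 18 libraries in the order of replicates within a group, blue for PBS and orange for DOX, with a line at the group mean. In DOX E2 the libraries lie below PBS E2 for Ccl21a, Ccl24 and the lymphatic markers and above it for Ccl19.

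Ccl27a and Ccl27b, copies of a ligand of Ccr10 made by epithelia, fell with both hormones. Their counts may be split between near-identical copies, at a ratio of 1.66 to 3.38 over the libraries. Ccl27a stood at 13.2, 12 and 11.6 CPM in PBS OIL, 5.23, 7.37 and 4.87 CPM in PBS E2, and 7.42, 6.86 and 6.29 CPM in PBS P4. In the DOX arm it stood at 10.7, 12.3 and 12.1 CPM under OIL, 4.18, 4.18 and 4.60 CPM under E2, and 7.65, 5.60 and 6.65 CPM under P4. Every hormone library lay below every OIL library. E2 lowered Ccl27a by 1.08 ± 0.16 and 1.44 ± 0.16 in the PBS and DOX arms (adjusted p = 3.08e-05 and 9.91e-07), and P4 lowered it by 0.84 ± 0.16 and 0.82 ± 0.16 (adjusted p = 0.00141 and 0.00165).

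Ccl27b stood at 7.22, 5.57 and 5.36 CPM in PBS OIL and 6.34, 6.56 and 4.42 CPM in DOX OIL. It was at 2.28, 2.87 and 2.20 CPM in PBS E2, 1.45, 1.24 and 1.81 CPM in DOX E2, 3.64, 4.14 and 2.93 CPM in PBS P4 and 3.17, 3.20 and 3.51 CPM in DOX P4. It fell with E2 by 1.31 ± 0.21 and 1.94 ± 0.22 and with P4 by 0.76 ± 0.21 and 0.81 ± 0.21, all called. The P4 call in the PBS arm was lost without PBS OIL replicate 1 (-0.61) or PBS P4 replicate 3 (-0.63).

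With DOX under E2, Ccl27a fell by 0.43 ± 0.16 (adjusted p = 0.0498) and Ccl27b by 0.70 ± 0.23 (adjusted p = 0.0215). The Ccl27a call was lost when DOX E2 replicate 1 (-0.42), 2 (-0.40) or 3 (-0.48) or PBS E2 replicate 2 (-0.23) was left out, and also under limma voom, with no filter, in a fit of the groups compared alone and with the replicate block (adjusted p = 0.0307 to 0.274 over its alternatives). The Ccl27b call was lost without PBS E2 replicate 2 (-0.58), DOX E2 replicate 1 (-0.69) or 2 (-0.58) and in the fit of the groups compared alone. Ccr10, their receptor, was between 0.206 and 1.11 CPM in all libraries and was called nowhere.

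Cxcl16, a membrane-bound ligand of Cxcr6, went up with E2 and down with P4. It stood at 31.9, 39.9 and 35.6 CPM in PBS OIL, 57.3, 50.4 and 59.9 CPM in PBS E2, and 19.3, 14.2 and 14.8 CPM in PBS P4, 3 ranges that did not overlap. The log2 fold changes in the PBS arm were 0.64 ± 0.19 with E2 (adjusted p = 0.00923) and -1.15 ± 0.20 with P4 (adjusted p = 0.000744). In the DOX arm it stood at 26.5, 38.1 and 22.1 CPM under OIL, 36.3, 41.4 and 57.4 CPM under E2 and 16.6, 20.6 and 19.7 CPM under P4. There the values were 0.64 ± 0.20 with E2 (adjusted p = 0.00786), with overlap, and -0.61 ± 0.20 with P4 (adjusted p = 0.0304). The E2 call was lost without DOX E2 replicate 3 (0.43), and the P4 call without DOX OIL replicate 2 (-0.36) or DOX P4 replicate 1 (-0.52) or 3 (-0.63).

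Cxcl13, the B cell ligand of Cxcr5, stood at 2.36, 3.44 and 1.86 CPM in PBS OIL and 0.724, 1.36 and 0.629 CPM in PBS E2. In DOX animals it was at 0.788, 3.67 and 0.948 CPM under OIL and at 0.207, 0.516 and 0.657 CPM under E2. E2 lowered it by 1.51 ± 0.63 (adjusted p = 0.0487) and 1.94 ± 0.68 (adjusted p = 0.0179) in the PBS and DOX arms. The first call was lost in 5 of 6 fits without 1 library, namely PBS OIL replicate 1 (-1.57), 2 (-1.24) or 3 (-1.69) and PBS E2 replicate 1 (-1.36) or 3 (-1.32). The second was lost without DOX OIL replicate 2 (-0.88) or DOX E2 replicate 1 (-1.61).

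Cxcl9, a ligand of Cxcr3 induced by interferon gamma, stood at 3.94, 13.8 and 1.68 CPM in DOX OIL, against 0.535, 1.86 and 0.979 CPM in PBS OIL. Its difference with DOX under OIL was 2.52 ± 0.79 and not called (adjusted p = 0.564), and it was 1.33 without DOX OIL replicate 2 (adjusted p = 0.322 to 0.913 with 1 OIL library left out). In DOX E2 it was at 0.723, 1.03 and 2.67 CPM, and the fall with E2 in the DOX arm was 2.11 ± 0.77 on the log2 scale (adjusted p = 0.0223). That fall was -0.92 and not called without DOX OIL replicate 2, and was also lost without DOX E2 replicate 1 (-1.80) or 2 (-1.91). Within groups Cxcl9 moved with Cxcl13 and Ccl5, a T cell product, at a Pearson r of 0.81 and 0.803 over the 18 libraries, given as a description. With DOX under OIL, 1253 of all 15494 tested genes had an unadjusted p under 0.05. Of the 22 tested genes of the interferon gamma response, 0 were called there by edgeR, 12 had an unadjusted p under 0.05 and 20 had a positive value. Without DOX OIL replicate 2 these were 2 and 18, and without PBS OIL replicate 1 4 and 18. Igtp stood at 0.95 ± 0.28 and Gbp2 at 0.83 ± 0.29 there, both interferon-induced GTPases of cell-intrinsic defence, and neither was called.

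Ccl22, a ligand of Ccr4 made by dendritic cells, stood at 4.06, 5.23 and 0.632 CPM in DOX OIL and 0.724, 0.677 and 0.868 CPM in DOX P4. The fall with P4 in the DOX arm, 2.13 ± 0.73 on the log2 scale (adjusted p = 0.0392), was lost without DOX OIL replicate 1 (-1.95) or 2 (-1.64) and without DOX P4 replicate 1 (-2.10), 2 (-2.04) or 3 (-2.24). Ccl25, a ligand of Ccr9, was the 1 member called higher with P4. It stood at 0.912, 0.917 and 0.684 CPM in DOX OIL, 1.45, 1.54 and 2.06 CPM in DOX P4 and 1.34, 1.44 and 1.40 CPM in DOX E2. P4 raised it in the DOX arm by 1.0 ± 0.31 (adjusted p = 0.0224), a call lost without DOX OIL replicate 3 (0.88) or DOX P4 replicate 3 (0.83). E2 raised it there by 0.73 ± 0.31 (adjusted p = 0.0457), a call lost without any 1 of the 6 libraries, at 0.61 to 0.79. Ccl5, Ccl17 and Xcl1 were tested and called in no comparison.

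Of the ligands with broad or other targets, Cxcl12 was lower in DOX E2 than in any other group. Cxcl12, which retains and guides many cell types through Cxcr4 and is bound and cleared by Cxcr7, lies on chromosome 6 at 117168535 to 117181367 on the plus strand. It stood at 376, 350 and 397 CPM in DOX E2, and the other 15 libraries lay between 500 and 901 CPM. In PBS E2 it stood at 531, 675 and 704 CPM and in DOX OIL at 736, 777 and 581 CPM. DOX lowered it under E2 by 0.77 ± 0.17 (adjusted p = 0.00292), and E2 lowered it in the DOX arm by 0.90 ± 0.18 (adjusted p = 0.000242). Both calls held in every alternative run.

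In the PBS arm the E2 value of Cxcl12 was -0.15, with 500, 901 and 725 CPM under OIL. It was the 1 member whose E2 response was called different between the arms, by -0.74 ± 0.25 (adjusted p = 0.0403). That call was lost in 8 of 12 fits without 1 library and in a fit of the 4 groups alone (adjusted p = 0.00644 to 0.0981 over its alternatives). The 8 were those without PBS OIL replicate 1 (-0.56) or 3 (-0.76), DOX OIL replicate 1 (-0.71) or 2 (-0.66), PBS E2 replicate 2 (-0.70) or 3 (-0.67), and DOX E2 replicate 1 (-0.76) or 2 (-0.70). The value was negative in all of them.

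Cxcl14, an epithelial ligand, stood at 128, 54.5 and 44.8 CPM in PBS OIL and at 20.1, 13.8 and 33.0 CPM in PBS P4. P4 lowered it in the PBS arm by 1.77 ± 0.55 (adjusted p = 0.0247), a call lost without PBS OIL replicate 1 (-1.16) or PBS P4 replicate 1 (-1.70) or 2 (-1.51). Cxcl17, a ligand of mucosal epithelia, fell with P4 in both arms. It stood at 7.40, 10.1 and 12.5 CPM in PBS OIL against 3.60, 0.863 and 2.46 CPM in PBS P4, and at 4.60, 8.21 and 7.84 CPM in DOX OIL against 0.724, 2.52 and 1.19 CPM in DOX P4. The groups did not overlap, and the log2 fold changes were -2.12 ± 0.52 (adjusted p = 0.0065) and -2.20 ± 0.53 (adjusted p = 0.00611). Both calls held in every alternative run.

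The receptors of Cxcl12 moved in opposite directions with E2. Cxcr4, the signalling receptor, stood at 20.1, 25.8 and 18.6 CPM in PBS OIL and 18.9, 19.2 and 37.9 CPM in DOX OIL. With E2 it was at 3.95, 2.76 and 3.56 CPM in the PBS arm and 1.6, 3.87 and 3.08 CPM in the DOX arm. Cxcr7, now named Ackr3, which takes up Cxcl12 without G protein signalling, stood at 20.4, 25.8 and 22.7 CPM in PBS OIL and 27.6, 17.1 and 22 CPM in DOX OIL. It was at 148, 75.6 and 135 CPM in PBS E2 and 172, 166 and 198 CPM in DOX E2. For each receptor the E2 and OIL ranges were far apart.

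Cxcr4 fell with E2 by 2.64 ± 0.31 (adjusted p = 2.61e-06) and 3.14 ± 0.32 (adjusted p = 2.45e-07) on the log2 scale in the PBS and DOX arms. Cxcr7 rose by 2.38 ± 0.36 (adjusted p = 3.49e-05) and 3.01 ± 0.37 (adjusted p = 2.16e-06). All 4 calls held in every alternative run. Neither receptor was called with DOX under E2. P4 lowered Cxcr4, to 13.6, 11.7 and 11.4 CPM in the PBS arm and 12.1, 8.05 and 10.5 CPM in the DOX arm, by 0.81 ± 0.29 (adjusted p = 0.0412) and 1.31 ± 0.29 (adjusted p = 0.00361). The first of these was lost without PBS OIL replicate 1 (-0.86) or 2 (-0.66), without PBS P4 replicate 1 (-0.89), 2 (-0.78) or 3 (-0.76), and with the replicate block. Cxcr7 was not called with P4.

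**Figure D5:**
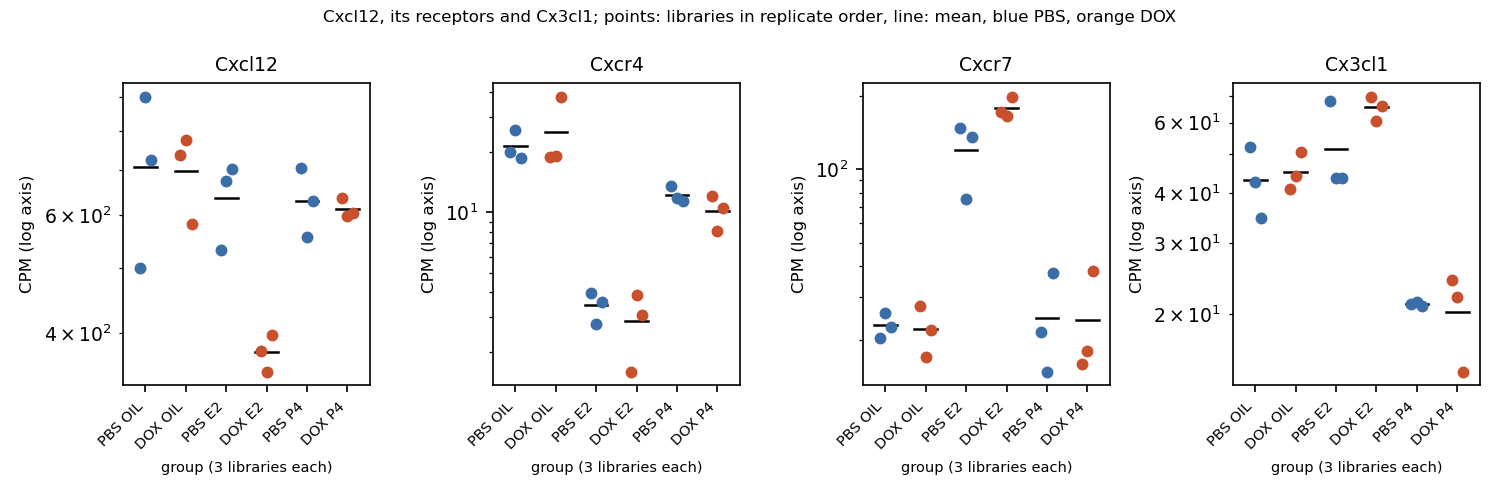
CPM on a log axis for Cxcl12, its receptors Cxcr4 and Cxcr7, and Cx3cl1 in each of 18 libraries, in the order of replicates within a group, blue for PBS and orange for DOX, with a line at the group mean. Cxcl12 is lowest in DOX E2, Cxcr4 is low and Cxcr7 high in both E2 groups, and Cx3cl1 is lowest in the P4 groups.

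Of the receptors on monocytes and macrophages, Ccr1, which binds several inflammatory CC ligands, rose with E2 in the DOX arm. Ccr1 stood at 1.66, 3.49 and 2.37 CPM in DOX OIL and 6.71, 8.66 and 8.63 CPM in DOX E2, a rise of 1.68 ± 0.50 (adjusted p = 0.00646). In the PBS arm it was at 6.96 CPM in PBS OIL replicate 2 and 1.43 and 1.49 CPM in the others, and its E2 value went from 0.59 to 1.76 without that library and then passed the threshold. Ccr2, the receptor of Ccl2, Ccl7 and Ccl12, stood between 12.9 and 52.3 CPM and was called in no comparison.

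Cxcr2, the neutrophil receptor of Cxcl1 and Cxcl5, was at 2.41 CPM in PBS OIL replicate 2 and at most 1.39 CPM elsewhere, with no call. Cxcr1 had 3 counts in all libraries together. Ly6g, the defining neutrophil marker, was between 0 and 0.0821 CPM in all libraries. S100a8 reached 12.8 CPM in PBS OIL, against 1.03 to 2.72 CPM in PBS E2 and 0.0431 to 0.0946 CPM in PBS P4. Of 10 tested neutrophil markers, 1 was higher and 2 lower with E2 in the PBS arm and 1 higher and 1 lower in the DOX arm. These 30% and 20% called compare with 61.4% and 72.6% of all genes. With P4 in the PBS arm 60% were lower and 10% higher, against 15.6% and 16.2% of all genes. With P4 in the DOX arm 0% were lower and 10% higher, against 15.1% and 14.7%. The 15 neutrophil markers summed to 21.7 to 29.7 CPM in PBS E2 and 22.2 to 50.3 CPM in DOX E2. In PBS OIL the sum was 29.3 to 119 CPM, highest in replicate 2, and in DOX OIL 27.8 to 51.6 CPM. The part of neutrophils in the level of Cxcl1 was not tested.

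Of the 8 tested receptors on lymphocytes and dendritic cells, 0 were called higher and 3 lower with E2 in the DOX arm, 37.5% lower as over all genes, with a median log2 fold change of -0.57 against -0.08 over all genes. Cxcr6, the receptor of Cxcl16, stood at 6.63, 9.49 and 12.1 CPM in DOX OIL, 4.80, 5 and 7.11 CPM in DOX E2 and 5.79, 6.09 and 3 CPM in DOX P4. It fell with E2 by 0.73 ± 0.28 (adjusted p = 0.0292) and with P4 by 0.92 ± 0.28 (adjusted p = 0.023). The E2 call was lost without DOX OIL replicate 2 (-0.72) or 3 (-0.51) or DOX E2 replicate 1 (-0.64) or 2 (-0.65), and the P4 call without DOX OIL replicate 2 (-0.92) or 3 (-0.70) or DOX P4 replicate 3 (-0.66). Cxcr3, the receptor of Cxcl9, stood at 1.99, 5.69 and 2.42 CPM in DOX OIL and 0.568, 1.86 and 2.14 CPM in DOX E2. It fell with E2 by 1.13 ± 0.47 (adjusted p = 0.0385), a call lost without DOX OIL replicate 2 (-0.52) or DOX E2 replicate 1 (-0.76).

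Ccr6, the receptor of Ccl20, was under 1 CPM in every library. It fell with E2 in the DOX arm by 1.33 ± 0.55 (adjusted p = 0.0395), a call lost without DOX OIL replicate 1 (-0.80) or DOX E2 replicate 1 (-1.40), 2 (-1.24) or 3 (-1.36). Of 12 T cell markers 4 were lower and 0 higher in the same comparison, 33.3% against 37.5% of all genes called lower, among them Cd3d at -1.09 ± 0.37 and Icos at -0.89 ± 0.32. Their summed level was 28.1 to 54.3 CPM in DOX OIL and 16.1 to 29 CPM in DOX E2, and no marker of the 12 was at 0 in any library. With P4 in the DOX arm 4 of 12 were lower too, 33.3% against 15.1% of all genes. Of 10 markers of natural killer (NK) cells, 70% were lower and 10% higher with E2 in the DOX arm, against 37.5% and 35.1% of all genes. Their summed level was nevertheless higher, at 25.8 to 37.2 CPM in DOX OIL and 41.2 to 43.4 CPM in DOX E2. The sum thus does not follow most of these markers. Of 8 dendritic cell markers, 37.5% were lower, as over all genes, and 12.5% higher in that comparison, against 35.1% of all genes. The part of T cells, NK cells and dendritic cells in the level of these receptors was not tested. Ccr7, Ccr9, Ccr10, Cxcr5 and Xcr1 were tested and called in no comparison.

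Other genes of chemokine signalling were read from a list of 29 genes, 28 of them tested. With E2 in the PBS arm 5 were higher and 10 lower, and in the DOX arm 6 and 10, with medians of -0.38 and 0.03. The shares called, 53.6% and 57.1%, lay under the 61.4% and 72.6% of all genes. Ccrl2, which presents a chemoattractant to neighbouring cells, fell by 2.26 ± 0.21 and 2.60 ± 0.21, and Gnb1, a G protein subunit, rose by 0.84 ± 0.07 and 0.89 ± 0.07. With DOX under E2 25% were called against 41.0% of all genes, 4 higher and 3 lower. Among these, Ccbp2, now named Ackr2, which clears inflammatory CC ligands, fell by 2.66 ± 0.52 (adjusted p = 0.000974), and Pik3cg, the lipid kinase downstream of chemokine receptors, rose by 1.07 ± 0.20 (adjusted p = 0.000659). With P4, 1 was higher and 7 lower in the PBS arm and 1 and 4 in the DOX arm. These 28.6% and 17.9% called compare with 31.8% and 29.8% of all genes.

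Genes of the NF-kB and interferon gamma pathways, inhibitors and response genes among them, were read from a pair of lists. Their part in the levels of the chemokines was not tested. Of 27 tested genes of the NF-kB pathway and its inflammatory inputs, 14 were higher and 3 lower with E2 in the PBS arm and 20 and 2 in the DOX arm, with medians of 0.41 and 1.24. The shares called higher were 51.9% and 74.1%, against 29.6% and 35.1% of all genes. With DOX under E2, 8 were higher and 0 lower, with a median of 0.33 and 29.6% called higher against 20.4% of all genes. Nfkb2 rose by 1.17 ± 0.12 (adjusted p = 6.59e-06), Relb by 1.13 ± 0.13 (adjusted p = 1.83e-05), and the inhibitors Nfkbia and Nfkbib by 0.50 ± 0.11 and 0.72 ± 0.16. Of 22 tested genes of the interferon gamma response, 1 was higher and 3 lower with DOX under E2. These 4.55% and 13.6% compare with 20.4% and 20.6% of all genes. The transcription factor Irf1 was among the 3 lower, at -1.12 ± 0.13 (adjusted p = 2.44e-05). With E2 in the DOX arm 3 of the 22 were higher and 13 lower, 13.6% and 59.1% against 35.1% and 37.5% of all genes. There Socs1, a feedback inhibitor, rose by 4.16 ± 0.29 (adjusted p = 4.05e-09). With P4 the NF-kB list had 2 higher and 10 lower in the PBS arm and 3 and 5 in the DOX arm. The shares lower, 37% and 18.5%, compare with 15.6% and 15.1% of all genes. The shares higher, 7.41% and 11.1%, compare with 16.2% and 14.7%.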

How the data were processed

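Libraries were made from total RNA of 18 whole uterus homogenates, 3 per group, by a TruSeq protocol. Values were raw read counts per gene symbol as the authors deposited them, and 2904 of its 22238 symbols were at 0 in all libraries. Build GRCm38 and HISAT2 2.1.0 are named per the submitters' processing notes, as are StringTie 1.3.4d, Trimmomatic 0.36, SAMtools 1.6, R 3.4.4, FastQC 0.11.5 and DESeq2 1.18.1. Which tool counted the reads, with which annotation and strand setting, is not given in the sources used here, so reads of near-identical copies or of overlapping genes may be divided in an unknown way. All columns were mapped to samples by name, and libraries of a group were checked and were not copies of each other.

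Counts were filtered with filterByExpr, scaled by trimmed mean of M values and tested with the quasi-likelihood test of edgeR 4.0.16 in R 4.3.3. All 6 groups entered 1 fit with 12 residual degrees of freedom, no covariate, and Benjamini-Hochberg adjustment over 15494 genes at 0.05. SE is the log2 fold change over the square root of F. Depth was 18042357 to 39783785 counts per library, and the scatter of low genes limits precision. The test was checked on simulated data. Values in every library are given for members called in at least 1 comparison with a mean of at least 1 CPM in a group, others by range and counts, and up to 4 genes of each pathway or marker list with the smallest p. Cxcl2, Cxcl3, Ccl3, Ccl4, Ccl6, Ccl8 and Ccl9 were singled out after their values were seen. Members and lists were chosen with earlier results of these data known. Alternatives were DESeq2 1.42.0, limma 3.58.1 voom with quality weights per library, DESeq2 size factors, no filter and a filter of 1 CPM in 3 libraries. Others were a fit of the groups compared alone, the replicate number as a block and each library left out. Leaving out both OIL libraries numbered 2 was added after seeing the data. Positions are from GENCODE M21 and promoters from RefSeq, GRCm38.p6, with 39 of 54 members matched. The values of 1 tested member are not reported here, though it is in the counts.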

Additional observations from a re-analysis of the deposited data

Results flagged for a closer look

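The response of Cxcl12 to E2 differed between the DOX and PBS arms by -0.74 on the log2 scale, with an adjusted p of 0.0403 by edgeR's quasi-likelihood test of the difference itself. All 3 DOX E2 libraries lay below the other 15. The call was lost in most fits without 1 library and in a fit of the groups compared alone. It was the only member called in this test, 2.22% of the members against 22.9% of all genes.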

How the results depend on the processing

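Of 63 calls of a member in a comparison, 37 stayed in every alternative and 26 were lost in at least 1. Calls absent from the main fit were gained in at least 1 alternative 42 times. Cxcl15 and Ccl5, called in no comparison of the main fit, were among these. With 1 library left out, the number of members called ran from 0 to 0 for DOX under OIL, 5 to 10 for DOX under E2 (main 9), 0 to 0 for DOX under P4, 9 to 16 and 16 to 24 for E2 in the PBS and DOX arms (main 11 and 25), 0 to 4 for the E2 by DOX interaction (main 1), 5 to 12 and 5 to 10 for P4 (main 8 and 9) and 0 to 0 for P4 by DOX. The 5 for DOX under E2 came without PBS E2 replicate 2, and the 16 for E2 in the DOX arm without DOX E2 replicate 1. limma voom called 14 members for DOX under E2 and 4 for the E2 by DOX interaction, where DESeq2 called 3 and a fit of the groups compared alone 0. Over all genes, DOX under OIL went from 2 calls to 20 with DESeq2, 1 with limma voom, 0 with the replicate block and 0 without both OIL libraries numbered 2. DOX under P4 went from 0 to 10 with DESeq2 and 4 with limma voom, the E2 by DOX interaction from 3553 to 5331 with limma voom, and P4 by DOX from 1 to 2 with DESeq2 and to 0 with the stricter filter, the groups compared alone and the block. Direction turned, with the turned value or the main value past the threshold, for Cxcl5 (2.69), Ccl6 (1.45) and Ccl9 (1.72) with E2 in the PBS arm and for Cxcl5 (0.40) with P4 in the PBS arm, both without PBS OIL replicate 2 and without both OIL libraries numbered 2. Their lowest values with 1 library left out were -1.09 (Cxcl5, E2), -0.53 (Ccl6), -0.57 (Ccl9) and -3.54 (Cxcl5, P4). Over all genes, P4 calls went to 3146 without PBS P4 replicate 3 (main 4930) and 3057 without DOX P4 replicate 3 (main 4618). Values past the threshold in neither fit also changed sign with 1 library left out: with P4 in the PBS arm Ccl9 from -1.07 to 0.72, Ccl3 from -2.5 to 0.05 and Cxcl1 from -1.31 to 0.02, with E2 in the PBS arm Cxcl12 from -0.15 to 0.06 and Ccl3 from 0.06 to -0.46, and Cxcl5 in the E2 by DOX interaction from 3.13 to -0.12. The cause of the other changes was not tested. Same-numbered libraries deviated together at r from -0.28 to 0.36, with no comparison over 0.1 in all 3 pairs. For DOX under OIL their r was 0.28, 0.36 and 0.09, while pairs of unlike number ran from -0.31 to 0.04. Some shared deviation by replicate number is thus seen under OIL. With the replicate number as a block 7 members were called for DOX under E2, 1 for the E2 by DOX interaction, 6 and 8 for P4, and 11 and 22 for E2. Members under about 1 CPM, such as Cxcl5 and Ccr6, rest on few counts.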
